A study of Mus musculus with 12 samples.

Results

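The 37 genes described here encode the core machinery of autophagy, its cargo receptors and a pair of mitophagy receptors. They were taken as a list of symbols matched to the Ensembl identifiers of the count table, so that all 37 were found among its 49315 genes, and they were sorted into 9 roles. RNA was sequenced from lung group 2 innate lymphoid cells (ILC2s, lymphocytes of type 2 immunity without antigen receptors) and blood eosinophils (granulocytes of type 2 immunity), each cultured with the other cell or alone. There were 3 libraries in each of 4 groups: ILC2s with eosinophils, ILC2s alone, eosinophils with ILC2s, and eosinophils alone. All cells came from C57BL/6 mice with no genetic change named in the labels, and every group spent its last 24 h in medium without cytokines. The labels name a separation of the cocultured cells by flow cytometry ahead of Trizol. Whether cells kept alone went through the same sort is not stated, and if they did not, sorting and coculture cannot be told apart in any response given here. Before that, the ILC2s of both groups had grown with IL-25, IL-7, IL-33 and IL-2 together, followed by 48 h in which IL-7 and IL-2 were the cytokines left. The eosinophils of both groups were the blood fraction not bound by B220 and CD90 beads and had been held for 24 h with IL-33. No group was kept out of these cytokines, so the reference for each response is a cell recently withdrawn from them. Whether replicates stem from separate cultures or animals is not in the labels, and the p-values therefore reflect the spread of these libraries only, which may be technical.

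In autophagy the ULK1 kinase complex responds to nutrient and energy sensors and starts a membrane sheet, the phagophore, on which the class III PI3 kinase makes the lipid that recruits WIPI proteins. ATG2 and ATG9 proteins supply lipid, and a pair of ubiquitin-like conjugation systems attaches the LC3 and GABARAP proteins to the growing membrane, where cargo receptors bind them. In mitophagy the cargo is a mitochondrion, marked either by ubiquitin or by outer membrane receptors such as BNIP3 and BNIP3L, whose genes are known to be induced by hypoxia. In mouse ILC2s autophagy is known to support survival and cytokine production. A transcript level says nothing of autophagic flux.

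The libraries held 16769929 to 22928961 counts each, at which 3 counts equal 0.131 to 0.179 CPM (counts of a gene scaled to a common library size). No pair of replicates agreed within counting noise, with a ratio of chi-square to its degrees of freedom of 2.57 to 19.5, and replicate 2 of eosinophils alone stood farthest from its partners (13.9 and 19.5). Gata3, the transcription factor of ILC2 identity, averaged 706 CPM in ILC2s with eosinophils, 748 CPM in ILC2s alone, 0.316 CPM in eosinophils with ILC2s and 1.46 CPM in eosinophils alone. The eosinophil lectin gene Siglecf averaged 0.258, 0.228, 1374 and 1372 CPM in the same groups. Not all of the 12 ILC2 markers set the cells apart. They summed to 8565 to 9109, 9798 to 9908, 1147.5 to 1203 and 1292 to 1330 CPM in those groups. Il1rl1 averaged 2611, 2490, 639 and 978 CPM in the same order, and Id2 764, 727, 712 and 559 CPM. Il7r averaged 239 CPM in ILC2s with eosinophils and 1396 CPM in ILC2s alone. Of 12 eosinophil markers, 9 were detected in ILC2s with eosinophils and 11 in ILC2s alone, and they summed to 18.3 to 22.2 CPM against 4.67 to 5.16 CPM, with Prg3 at 0 in both. Csf2rb, the shared beta receptor chain for IL-3, IL-5 and GM-CSF, led this sum at a mean of 14.9 CPM with eosinophils and 1.18 CPM alone, while Alox15 was at 1.08 and 1.16 CPM and Clec4a2 and Ear2 were at 0 with eosinophils. The 10 macrophage and monocyte markers, led by Ccr2, summed to 463 to 563 CPM in ILC2s with eosinophils and 991 to 1031 CPM in ILC2s alone, with Marco at 0 in both. Of 9 neutrophil markers, 8 were detected in both eosinophil groups (Camp was at 0). They summed to 703 to 792 CPM in eosinophils with ILC2s and 281 to 301 CPM in eosinophils alone, led by Retnlg with ILC2s and by Cxcr2 alone. The 11 basophil and mast cell markers summed to 722 to 761 CPM in ILC2s with eosinophils, 197 to 217 CPM in ILC2s alone, 158 to 171 CPM in eosinophils with ILC2s and 482 to 527 CPM in eosinophils alone. They were led by Cyp11a1 in ILC2s with eosinophils and in eosinophils alone, by Kit in ILC2s alone and by Gata2 in eosinophils with ILC2s, and Tpsb2 was at 0 in all groups but eosinophils alone. The 8 erythroid and platelet markers summed to 498 to 514 CPM in eosinophils with ILC2s and 498 to 533 CPM in eosinophils alone. The 9 T cell markers summed to 164 to 177 CPM in ILC2s with eosinophils and 207 to 221 CPM in ILC2s alone. The part of these marker lists in the results was not tested.

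In ILC2s the coculture went with lower transcript levels across most steps of the pathway and higher levels of the mitophagy receptors and of Optn. At an edgeR adjusted p under 0.05, called from here on, 21 members were lower and 9 were higher in ILC2s with eosinophils than in ILC2s alone, and 7 did not pass. Those are 56.8% lower and 24.3% higher, where 35.6% of all 14438 genes tested were lower and 36.8% higher. The median log2 fold change of the members was -0.21, against 0.00 over all genes tested. The groups did not overlap for 29 members (78.4%), and the same held for 74.9% of all genes. Few members moved far: 2 rose at least 2-fold (Bnip3 and Optn) and 1 fell at least 2-fold (Atg16l2), where 14.0% and 9.89% of all genes did. Scaling by library totals alone moved the median of all genes by -0.16 on the log2 scale and the count of members to 4 higher and 24 lower (all genes 4385 higher and 6330 lower, against 5315 and 5139). Mitochondrial genes held 1.56% to 1.65% of counts in ILC2s with eosinophils and 1.13% to 1.15% in ILC2s alone, and ribosomal protein genes held 7.12% to 7.61% and 5.19% to 5.46%; their part in these counts was not tested. In these bulk libraries, fewer cells in a given state and less RNA per cell cannot be told apart.

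In eosinophils members changed in both directions. Of the 37 members, 9 were higher and 7 were lower in eosinophils with ILC2s than in eosinophils alone, and 21 did not pass. Those are 24.3% higher and 18.9% lower, where 11.4% of all 13109 genes tested were higher and 13.5% lower. The median log2 fold change of the members was 0.10, against 0.00 over all genes. The groups did not overlap for 26 members (70.3%), where 39.9% of all genes did not. Past 2-fold, 1 member rose (Gabarapl1) and 1 fell (Bnip3), where 1.15% and 4.61% of all genes did. The count of higher members was 5 without replicate 1 of eosinophils alone, and 10 without its replicate 2. With library totals alone, 13 members were higher and 6 lower (all genes 2114 higher and 1532 lower, against 1493 and 1771).

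**Figure D1:**
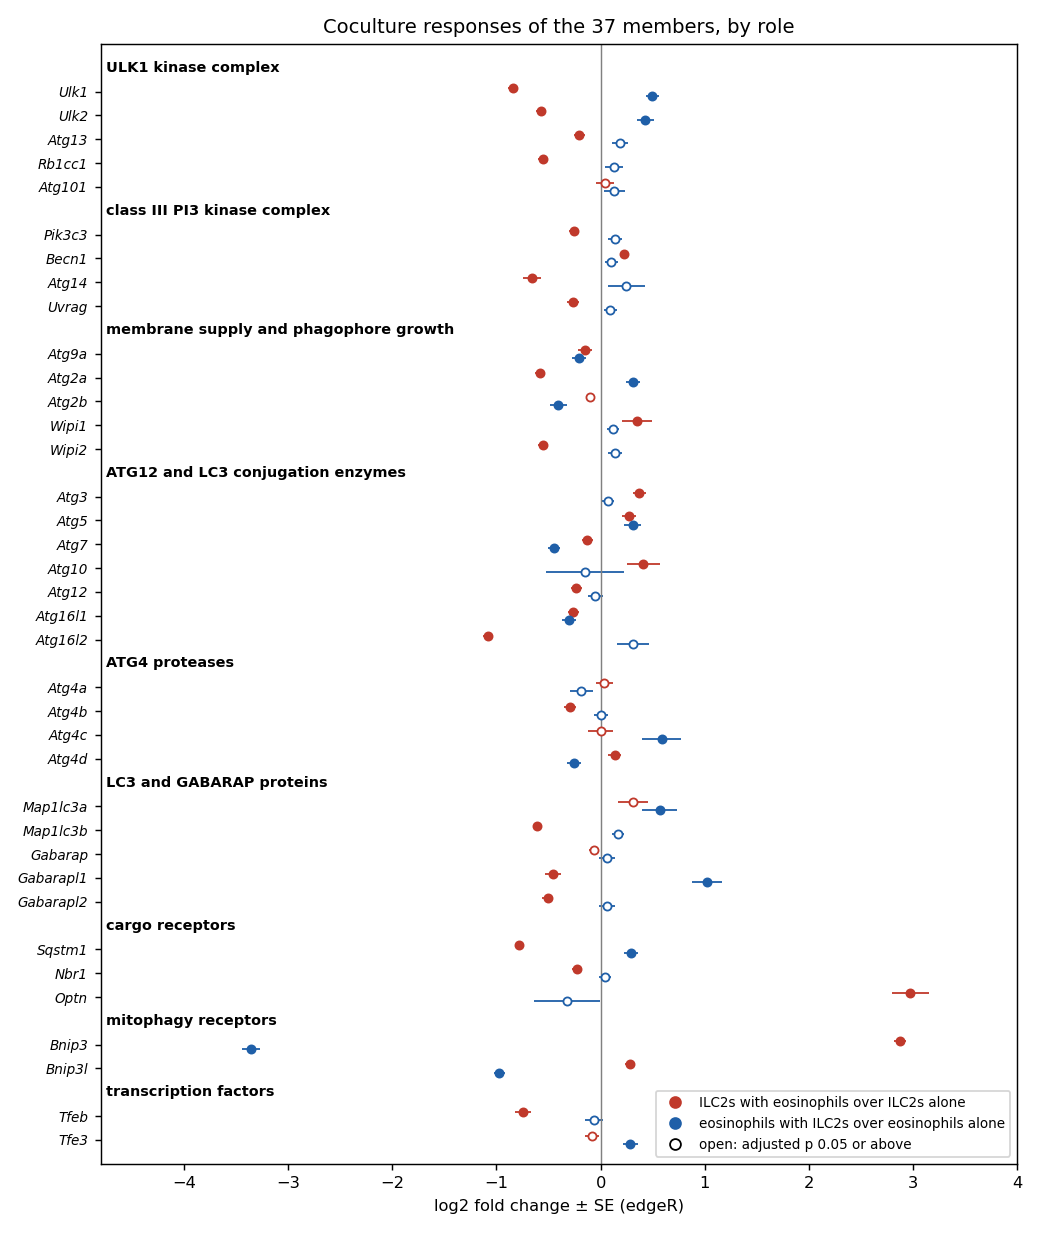
Log2 fold change ± SE of each of the 37 members, grouped by role, for ILC2s with eosinophils over ILC2s alone (red) and eosinophils with ILC2s over eosinophils alone (blue). Filled points passed the edgeR test at an adjusted p under 0.05. Bnip3 lies at 2.88 in ILC2s and -3.35 in eosinophils, and most other members lie within 1 of zero in both.

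The responses of the cell types were then set against each other. The log2 change in ILC2s minus that in eosinophils passed the test for 19 members as lower and 7 as higher, where it passed for 51.5% of all 15745 genes tested, 24.8% as lower and 26.8% as higher. It was past 2-fold for 5 members on the lower side and 3 on the higher side, against 8.94% and 13.6% of all genes. Its median was -0.30 over the members and 0.01 over all genes. Of the members called in both cell types, 5 were lower in cocultured ILC2s and higher in cocultured eosinophils (Ulk1, Ulk2, Atg2a, Gabarapl1 and Sqstm1). The opposite pair of directions held for 3 (Bnip3, Bnip3l and Atg4d), and the difference passed the test for all 8. These members were picked by opposite calls in the same libraries, so that result adds no separate evidence. The share of all genes with opposite calls was not computed. Atg4d was the weakest of the 8: its log2 fold change in ILC2s of 0.13 became -0.02 when scaled by library totals. Atg5 was higher in both, and Atg9a, Atg7 and Atg16l1 were lower in both. With library totals alone, the difference was higher for 3 members and lower for 21 (all genes 3357 and 5112, against 4215 and 3899).

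The mitophagy receptor Bnip3, an outer mitochondrial membrane protein that binds LC3, showed the largest difference of responses of all members. It stood at 225, 235 and 269.9 CPM in ILC2s with eosinophils, against 34.0, 30.0 and 34.7 CPM in ILC2s alone. In eosinophils with ILC2s it stood at 24.5, 26.6 and 30.0 CPM, against 289, 273 and 252 CPM in eosinophils alone. Neither pair of groups overlapped, and the cocultured libraries of each cell lay in the range where the other cell lay alone, or near it. The log2 fold change was 2.88 ± 0.059 in ILC2s (7.35-fold, edgeR adjusted p = 5.2e-26) and -3.35 ± 0.087 in eosinophils (10.2-fold lower, edgeR adjusted p = 1.2e-11). The difference of the responses was 6.21 ± 0.12 on the log2 scale (edgeR adjusted p = 3.8e-22). Alone, ILC2s held 8.20-fold less Bnip3 than eosinophils.

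Bnip3l, the paralog known as NIX that clears mitochondria from maturing red cells, moved the same way over a smaller range. It stood at 171, 182 and 195 CPM in ILC2s with eosinophils, against 143, 148 and 157 CPM in ILC2s alone. Its eosinophil values were 129.7, 133 and 137 CPM with ILC2s, against 260.4, 257 and 252 CPM alone. The groups did not overlap in either cell. The log2 fold change was 0.28 ± 0.045 in ILC2s (edgeR adjusted p = 2.4e-06) and -0.97 ± 0.056 in eosinophils (edgeR adjusted p = 2.2e-08), and the difference of responses was 1.23 ± 0.078. Per kilobase of exon, the level of Bnip3 was 2.27 ± 0.085 times that of Bnip3l in ILC2s with eosinophils and 0.376 ± 0.030 times in ILC2s alone, and it was 0.345 ± 0.027 times in eosinophils with ILC2s and 1.80 ± 0.091 times in eosinophils alone (SD, n = 3 each).

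A share of RNA that may be carried over from the partner cell was computed from markers that the partner holds at 10 CPM or more. The markers were also filtered by a low level in the cell alone, in the same libraries that the test then compares. The share in ILC2s was 0.0240% ± 0.0042 with eosinophils and 0.0308% ± 0.0113 alone (SD, n = 3 each, 11 markers, exact two-sided permutation p = 0.5). In eosinophils it was 0.0666% ± 0.0207 with ILC2s and 0.128% ± 0.0300 alone (7 markers, exact permutation p = 0.1, the smallest that 3 against 3 libraries allow). The mean share was lower with a partner than alone in both cells. Carried-over RNA therefore cannot be told apart here from background or from the cell's own expression of the markers. If the whole share with a partner were carried over, it would add 0.00554 CPM of Bnip3 to ILC2s, or 0.00204% of their level. In eosinophils it would add 0.181 CPM, or 0.784%. For Optn in ILC2s the part was 0.00390%, and for Gabarapl1 in eosinophils 0.158%.

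**Figure D2:**
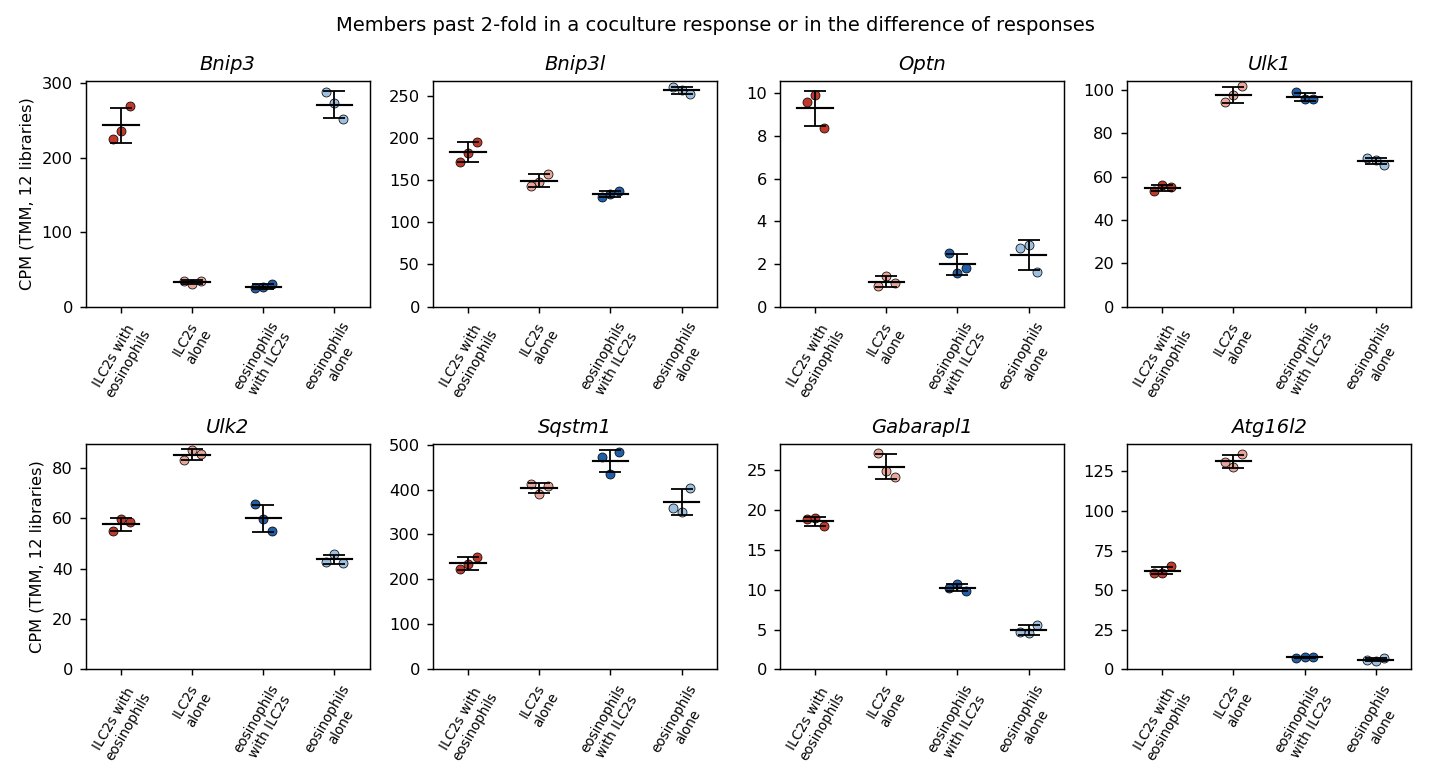
Level in each library of the 8 members past 2-fold in a coculture response or in the difference of responses, in CPM on a linear axis from 0, with points for libraries, a line for the mean and bars for the SD of the 3 libraries of a group. Bnip3 averages 244 CPM in ILC2s with eosinophils and 32.9 CPM in ILC2s alone, and 27.0 CPM in eosinophils with ILC2s and 271 CPM in eosinophils alone.

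Promoter windows were compared because several members moved together. RefSeq windows of 250 bases before the annotated start (build GRCm38.p6, the release of mm10) were used for 30 members, in 36 windows. The motifs were searched on both strands: ACGTG, the core of the hypoxia response element, CACGTG, the E-box bound by the TFEB family and by other basic helix-loop-helix factors, and its extended form TCACGTGA. Each E-box thus also counts as a hypoxia core. The core ACGTG was found in 12 member windows (33.3%) and in 16.6% of all 32851 windows, CACGTG in 4 (11.1%) and 6.02%, and TCACGTGA in 1 (2.78%) and 0.785%. The forkhead motif GTAAACA and the ATF4 and C/EBP motif TGATGNAA were in 0 member windows and in 3.17% and 3.45% of all windows. CACGTG was found in front of Bnip3, Atg3, Atg5 and Atg7. Of these 4, Bnip3, Atg3 and Atg5 were higher and Atg7 was lower in cocultured ILC2s. The other members with ACGTG did not rise there. Atg9a, Gabarapl2, Nbr1 and Uvrag were lower, and Atg101, Atg2b, Atg4a and Gabarap did not pass. A match describes the letters in the window and does not show that a factor binds there.

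The windows shown are those of 3 of the 4 members that were called higher in ILC2s under every alternative tried (the other is Bnip3l), each written 5' to 3' on the gene's strand with CACGTG in capitals. The Bnip3 window is chr7:138909507-138909756 on the minus strand, with CACGTG 108 to 103 bases before the start. The Atg3 window is chr16:45158579-45158828 on the plus strand, with CACGTG at 94 to 89 and at 71 to 66 bases before the start, the nearer one within TCACGTGA. The Optn window is chr2:5064118-5064367 on the minus strand and holds none of the 5 motifs searched. It does hold GCGTG, as does the Bnip3 window.
Bnip3: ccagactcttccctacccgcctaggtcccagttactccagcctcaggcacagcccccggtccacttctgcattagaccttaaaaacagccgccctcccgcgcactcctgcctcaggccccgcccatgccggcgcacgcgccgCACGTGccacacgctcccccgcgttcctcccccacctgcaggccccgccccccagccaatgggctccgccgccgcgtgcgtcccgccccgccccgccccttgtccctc
Atg3: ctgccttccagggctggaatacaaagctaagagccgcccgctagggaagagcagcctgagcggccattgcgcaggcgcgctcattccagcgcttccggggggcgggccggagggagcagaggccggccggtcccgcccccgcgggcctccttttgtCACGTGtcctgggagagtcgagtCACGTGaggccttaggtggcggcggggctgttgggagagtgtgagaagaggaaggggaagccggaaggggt
Optn: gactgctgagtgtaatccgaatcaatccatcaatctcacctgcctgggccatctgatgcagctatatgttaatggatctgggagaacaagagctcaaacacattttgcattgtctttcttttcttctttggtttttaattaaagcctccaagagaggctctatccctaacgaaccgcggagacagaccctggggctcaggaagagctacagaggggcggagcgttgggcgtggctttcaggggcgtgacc

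Among the cargo receptors, Sqstm1 and Optn went opposite ways in ILC2s. Optn encodes optineurin, which links ubiquitin on damaged mitochondria to LC3, and it was scarce among the members in every group. Per kilobase of exon it ranked 35 of 37 in ILC2s with eosinophils and 37 in each other group. It stood at 9.57, 9.94 and 8.38 CPM in ILC2s with eosinophils, against 0.96, 1.44 and 1.12 CPM in ILC2s alone. Every cocultured ILC2 library lay above every other library of the series. The log2 fold change in ILC2s was 2.97 ± 0.18 (7.85-fold, edgeR adjusted p = 6.3e-15), resting on 653 counts over the group with eosinophils and 84 over the group alone. Optn in eosinophils with ILC2s stood at 2.53, 1.58 and 1.82 CPM, against 2.74, 2.90 and 1.61 CPM in eosinophils alone, groups that overlapped (log2 fold change -0.32 ± 0.32, edgeR adjusted p = 0.52). The difference of responses was 3.27 ± 0.35.

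Sqstm1 encodes p62, the receptor that gathers ubiquitinated proteins and is itself degraded by autophagy. It stood at 223, 233 and 251 CPM in ILC2s with eosinophils, against 412, 390.5 and 407 CPM in ILC2s alone. Eosinophils with ILC2s held 473, 436 and 482 CPM, against 359, 350.5 and 404 CPM in eosinophils alone. The groups did not overlap in either cell, with cocultured ILC2s the lowest of the series and cocultured eosinophils the highest. Its log2 fold change was -0.78 ± 0.042 in ILC2s (edgeR adjusted p = 5.0e-16) and 0.29 ± 0.064 in eosinophils (edgeR adjusted p = 0.0043), with a difference of responses of -1.09 ± 0.086. Nbr1, a receptor that acts with p62, fell by a log2 change of 0.23 in ILC2s and did not pass in eosinophils (0.04).

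The kinase complex that starts autophagy fell in ILC2s in 4 of its 5 genes, and 2 of the 5 rose in eosinophils. Ulk1, the kinase itself, stood at 53.4, 56.2 and 55.1 CPM in ILC2s with eosinophils, against 94.4, 97.4 and 102 CPM in ILC2s alone. In eosinophils with ILC2s it stood at 98.8, 95.8 and 95.8 CPM, against 68.4, 67.5 and 65.5 CPM in eosinophils alone. Neither pair overlapped, and the log2 fold changes were -0.84 ± 0.047 in ILC2s (edgeR adjusted p = 1.1e-15) and 0.50 ± 0.061 in eosinophils (edgeR adjusted p = 4.0e-05). The difference of responses was -1.36 ± 0.077.

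Ulk2, the second kinase, stood at 54.8, 59.6 and 58.4 CPM in ILC2s with eosinophils, against 83.1, 87.1 and 85.7 CPM in ILC2s alone. Eosinophils with ILC2s held 65.6, 59.7 and 54.9 CPM, against 42.8, 45.8 and 42.4 CPM in eosinophils alone. The groups were apart in both cells, with log2 fold changes of -0.57 ± 0.048 and 0.43 ± 0.081 and a difference of -1.03 ± 0.094. The scaffold Rb1cc1, known as FIP200 (-0.55), and Atg13 (-0.21), which bridges it to the kinase, had negative log2 fold changes in ILC2s that passed. Neither passed in eosinophils, with log2 fold changes of 0.13 and 0.19, but both did without replicate 2 of eosinophils alone (0.23 and 0.23, edgeR adjusted p = 0.018 and 0.042). Atg13 also passed there with library totals, a replicate block and all 12 libraries in the fit (edgeR adjusted p 0.017 to 0.047). Atg101, which stabilises Atg13, passed in neither cell (0.04 in ILC2s and 0.13 in eosinophils).

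Of the class III PI3 kinase genes, 3 fell and 1 rose in ILC2s (75.0% and 25.0%, where 35.6% and 36.8% of all genes did). None of the 4 passed in eosinophils, where their edgeR adjusted p ran from 0.17 to 0.35. Atg14, which directs the kinase to the phagophore, was at 17.8 ± 1.65 CPM in ILC2s with eosinophils and 28.0 ± 2.83 CPM in ILC2s alone (SD, n = 3 each, log2 fold change -0.66). The catalytic subunit gene Pik3c3 (-0.26) and Uvrag (-0.27), which takes the kinase to endosomes, were lower in ILC2s by smaller log2 changes. Becn1, the shared scaffold Beclin 1, was higher in ILC2s (0.22), a call that was lost with library totals alone (0.065, edgeR adjusted p = 0.14). Becn1 shares 43.9% of its exon bases with the opposite-strand gene Cntd1, which averaged 0.828 to 1.32 CPM across the groups. The strand setting of the counting is not given in the sources used here, so reads of such pairs cannot be assigned by strand.

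Genes of membrane supply and phagophore growth were mixed. Atg2a, a lipid transfer protein gene, was lower in ILC2s (-0.59) and higher in eosinophils (0.31) by log2 fold change. Its paralog Atg2b fell by a log2 change of 0.41 in eosinophils and did not pass in ILC2s (-0.10). The difference of responses passed for both paralogs, at -0.92 for Atg2a and 0.29 for Atg2b. That of Atg2b did not pass with upper quartile scaling (0.22, edgeR adjusted p = 0.052) or library totals alone (0.096, edgeR adjusted p = 0.41). The ILC2 value of Atg2b passed as lower under RLE, upper quartile and library total scaling and with a filter at 1 CPM, at -0.25 to -0.10 (edgeR adjusted p 1.5e-05 to 0.047). The level of Atg2a per kilobase was 4.49 ± 0.14 times that of Atg2b in eosinophils with ILC2s and 2.74 ± 0.12 times in eosinophils alone, and it was 1.65 ± 0.074 times in ILC2s with eosinophils and 2.31 ± 0.056 times in ILC2s alone. Wipi2, which recruits ATG16L1 to the membrane, fell in ILC2s by a log2 change of 0.55. Wipi1 was called higher there (0.35), with overlapping libraries at 6.04 to 7.23 CPM with eosinophils and 4.33 to 6.05 CPM alone. Atg9a, the transmembrane lipid scramblase gene, fell by log2 changes of 0.15 in ILC2s and 0.21 in eosinophils. The Atg9a call in ILC2s was lost without any 1 library except replicate 3 of ILC2s alone (edgeR adjusted p 0.058 to 0.15). It was also lost with DESeq2 (DESeq2 adjusted p = 0.063), without the low-count filter and with all 12 libraries in the fit (edgeR adjusted p = 0.15 and 0.067). The Atg9a call in eosinophils was lost without replicate 1 or 3 of eosinophils with ILC2s, or 1 or 2 of eosinophils alone (edgeR adjusted p 0.074 to 0.17). Library totals and leaving out the low-count filter lost it too (edgeR adjusted p = 0.13 and 0.077). The Wipi1 call was lost with upper quartile scaling or library totals alone (0.28 and 0.19, edgeR adjusted p 0.085 and 0.24), and without replicate 1 or 2 of ILC2s with eosinophils, or 2 or 3 of ILC2s alone (edgeR adjusted p 0.052 to 0.18). DESeq2 did not call Wipi1 in ILC2s either (DESeq2 adjusted p = 0.069).

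All 7 genes of the ATG12 and LC3 conjugation systems were called in ILC2s, 4 lower and 3 higher. Those are 57.1% and 42.9%, where 35.6% and 36.8% of all genes were. Atg16l2, a paralog of Atg16l1 whose place in canonical autophagy is less settled, stood at 61.1, 60.9 and 65.0 CPM in ILC2s with eosinophils, against 131, 128 and 136 CPM in ILC2s alone. In eosinophils with ILC2s it stood at 7.36, 7.88 and 7.74 CPM, against 5.88, 5.30 and 6.94 CPM in eosinophils alone. The groups did not overlap in either cell. The log2 fold change was -1.09 ± 0.044 in ILC2s (edgeR adjusted p = 4.9e-19) and 0.31 ± 0.16 in eosinophils (edgeR adjusted p = 0.17), with a difference of responses of -1.42 ± 0.13.

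Atg16l1, the subunit that places the conjugation machinery on the membrane, was lower in both cocultured cells (-0.26 in ILC2s and -0.30 in eosinophils). So was Atg7, the activating enzyme of both systems (-0.13 and -0.45), though its ILC2 groups overlapped at 42.4 to 46.8 CPM with eosinophils and 46.6 to 49.7 CPM alone. The ILC2 call of Atg7 was lost without replicate 2 or 3 of ILC2s with eosinophils, or 1 or 3 of ILC2s alone (edgeR adjusted p 0.090 to 0.25). It was also lost with DESeq2 (DESeq2 adjusted p = 0.069), without the low-count filter and with all 12 libraries in the fit (edgeR adjusted p = 0.18 and 0.078). Atg5, the partner of ATG12, was higher in both (0.27 and 0.31), though its ILC2 call was lost with library totals alone (0.11, edgeR adjusted p = 0.13). Its eosinophil call was lost without replicate 1 or 3 of eosinophils with ILC2s, or 1 of eosinophils alone (edgeR adjusted p 0.056 to 0.096). Atg3, the enzyme that transfers LC3 to lipid, was higher in ILC2s, at 58.8 ± 1.24 CPM with eosinophils and 45.0 ± 4.45 CPM alone (log2 fold change 0.37 ± 0.060, edgeR adjusted p = 2.7e-06). Atg12 fell by a log2 change of 0.23 in ILC2s, and Atg10, which transfers ATG12, was called higher there (0.41) at 5.79 ± 0.958 CPM with eosinophils and 4.34 ± 0.788 CPM alone. The Atg10 call was lost with upper quartile scaling or library totals alone (0.34 and 0.26, edgeR adjusted p 0.059 and 0.16), and without replicate 1 of ILC2s with eosinophils, or 2 or 3 of ILC2s alone (edgeR adjusted p 0.058 to 0.18). It was also lost with DESeq2 (DESeq2 adjusted p = 0.053) and with all 12 libraries in the fit (edgeR adjusted p = 0.090).

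The ATG4 proteases, which trim LC3 before conjugation and release it afterwards, moved little. Atg4b, known as the main LC3 protease, fell by a log2 change of 0.29 in ILC2s and was level in eosinophils at 55.7 ± 1.32 CPM with ILC2s and 54.5 ± 1.33 CPM alone (log2 fold change 0.00 ± 0.065). Atg4d was higher in ILC2s (0.13) and lower in eosinophils (-0.26), and shares 19.3% of its exon bases with Kri1 on the opposite strand. The ILC2 call of Atg4d was lost without replicate 1 or 2 of ILC2s with eosinophils, or 2 or 3 of ILC2s alone (edgeR adjusted p 0.084 to 0.22). It was also lost with DESeq2 (DESeq2 adjusted p = 0.087) and upper quartile scaling (edgeR adjusted p = 0.31). RLE scaling, a filter at 1 CPM and all 12 libraries in the fit lost it too (edgeR adjusted p 0.051 to 0.054). The eosinophil call of Atg4d was lost without replicate 2 or 3 of eosinophils with ILC2s, or 1 of eosinophils alone (edgeR adjusted p 0.051 to 0.061). Kri1 averaged 47.4 CPM in ILC2s with eosinophils, 50.7 CPM in ILC2s alone, 46.1 CPM in eosinophils with ILC2s and 52.7 CPM in eosinophils alone. Atg4c was higher in eosinophils (0.58, edgeR adjusted p = 0.038), a call lost without any 1 of the 6 eosinophil libraries, where its edgeR adjusted p was 0.066 to 0.11. The call was also lost with DESeq2 (DESeq2 adjusted p = 0.073) and without the low-count filter (edgeR adjusted p = 0.078). Atg4a passed in neither cell.

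Of the 5 LC3 and GABARAP genes, 3 fell in ILC2s and 2 rose in eosinophils. Gabarapl1 stood at 18.9, 19.0 and 18.0 CPM in ILC2s with eosinophils, against 27.2, 25.0 and 24.2 CPM in ILC2s alone. Eosinophils with ILC2s held 10.3, 10.7 and 9.84 CPM, against 4.68, 4.56 and 5.64 CPM in eosinophils alone. No library of a cocultured group lay within the range of the same cell alone. The log2 fold change was -0.46 ± 0.078 in ILC2s (edgeR adjusted p = 6.6e-06) and 1.02 ± 0.15 in eosinophils (edgeR adjusted p = 0.00016), and the difference of responses was -1.50 ± 0.15. Gabarapl1 shares 28.3% of its exon bases with 1700101I11Rik on the opposite strand, a gene that averaged at most 0.288 CPM in any group.

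Map1lc3b, the LC3 gene most used as an autophagosome marker, fell by a log2 change of 0.61 in ILC2s and missed the threshold in eosinophils (0.17, edgeR adjusted p = 0.050). Gabarapl2 fell by 0.51 in ILC2s and had 0.06 in eosinophils. Map1lc3a had 0.31 in ILC2s (edgeR adjusted p = 0.055) and was called higher in eosinophils (0.57, edgeR adjusted p = 0.027). The eosinophil call was lost without replicate 2 or 3 of eosinophils with ILC2s, or 1 or 3 of eosinophils alone (edgeR adjusted p 0.058 to 0.13). Gabarap passed in neither cell, with log2 fold changes of -0.06 and 0.06. Some of these values passed once a library was left out: Map1lc3b in eosinophils without replicate 3 of eosinophils alone (edgeR adjusted p = 0.041), Map1lc3a in ILC2s without replicate 1 of either ILC2 group (0.028 and 0.0078), and Gabarap in ILC2s without replicate 3 of ILC2s with eosinophils (0.017) or 2 of ILC2s alone (0.038). Map1lc3b also passed with library totals, a replicate block and all 12 libraries in the fit (edgeR adjusted p 0.0076 to 0.011). Map1lc3a also passed without the low-count filter and with a replicate block (edgeR adjusted p = 0.044 and 0.042). With limma-voom both passed (limma adjusted p = 0.049 each). Gabarap also passed, as lower, with upper quartile scaling and library totals (edgeR adjusted p = 0.013 and 6.2e-05).

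Gabarap was also the most abundant of the family by length in every group. Per kilobase of exon it made up 62.0% ± 0.932 of the family's level in ILC2s with eosinophils and 55.5% ± 1.18 in ILC2s alone. In eosinophils it made up 80.1% ± 0.559 with ILC2s and 81.7% ± 1.39 alone. Gabarapl2 came next in ILC2s, at 18.3% ± 1.00 with eosinophils and 22.3% ± 0.619 alone. In eosinophils Map1lc3b came next, at 8.73% ± 0.222 with ILC2s and 8.29% ± 0.529 alone, and Gabarapl2 made up 7.40% ± 0.260 and 7.59% ± 0.621. The family sum was 149 ± 9.35 CPM per kilobase in ILC2s with eosinophils and 174 ± 8.06 in ILC2s alone, and 315 ± 17.4 in eosinophils with ILC2s and 291 ± 30.8 in eosinophils alone (SD, n = 3 each).

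**Figure D3:**
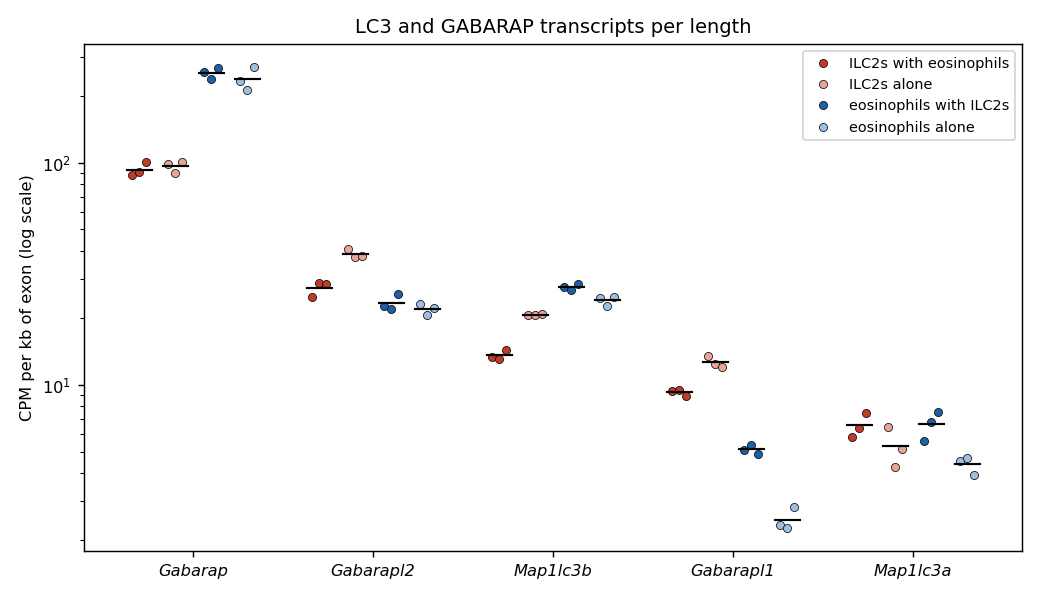
Level of the 5 LC3 and GABARAP genes in each library, in CPM per kilobase of exon on a log axis, with a line at the mean of the 3 libraries of a group. Gabarap is the highest in every group, and Gabarapl1 lies lower in ILC2s with eosinophils than in ILC2s alone and higher in eosinophils with ILC2s than in eosinophils alone.

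Of the transcription factors, Tfeb, a master regulator of lysosome and autophagy genes, was lower in ILC2s at 18.3 ± 1.49 CPM with eosinophils and 30.4 ± 0.305 CPM alone (log2 fold change -0.74 ± 0.076, edgeR adjusted p = 7.6e-10). In eosinophils it stood at 108 ± 1.21 CPM with ILC2s and 111 ± 16.3 CPM alone and did not pass. Tfe3, its relative, did not pass in ILC2s (-0.08) and was higher in eosinophils (0.29, edgeR adjusted p = 0.013). The Tfe3 call was lost without replicate 1 of eosinophils with ILC2s (edgeR adjusted p = 0.061) or 1 of eosinophils alone (0.052). The level of Tfeb per kilobase was 0.957 ± 0.050 times that of Tfe3 in ILC2s with eosinophils and 1.51 ± 0.047 times in ILC2s alone, and it was 4.16 ± 0.25 times in eosinophils with ILC2s and 5.29 ± 0.62 times in eosinophils alone.

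Ordered by level per kilobase of exon, Bnip3 led the members in ILC2s with eosinophils at 107.5 ± 10.3 CPM per kilobase. Gabarap followed at 92.7 ± 6.67, an interval that touched that of Bnip3, and Sqstm1 at 70.2 ± 4.19. In ILC2s alone Sqstm1 led at 120.1 ± 3.38, above Gabarap at 96.4 ± 5.48 and a level pair of Gabarapl2 at 38.7 ± 1.78 and Bnip3l at 38.7 ± 1.92, with Optn lowest at 0.313 ± 0.066. In eosinophils with ILC2s Gabarap led at 253 ± 14.7, followed by Sqstm1 at 138 ± 7.39 and Atg3 at 52.8 ± 0.499. In eosinophils alone Gabarap led at 238 ± 29.2, followed by Bnip3 at 119.8 ± 8.11 and Sqstm1 at 111 ± 8.59, the last 2 with intervals that overlapped.

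The members also differed between ILC2s and eosinophils cultured alone to the same 24 h end point, in shares near those of all genes. Of the 37, 14 were higher and 16 were lower in ILC2s alone than in eosinophils alone, and 7 did not pass. Those are 37.8% and 43.2%, where 40.8% of all 14525 genes tested were higher and 39.9% lower. The groups did not overlap for 31 members (83.8%), and for 82.3% of all genes. With library totals alone the median of all genes moved by 0.57 on the log2 scale, and 22 members were higher and 10 lower (all genes 8587 and 3664, against 5923 and 5796). Upper quartile scaling moved the median by 0.23 and gave 20 higher and 15 lower. The cells also came from different tissues and prior cytokines, which cannot be told apart from cell type here.

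The largest differences were those of Atg16l2 and Wipi1, each of which has a paralog that differed far less. Atg16l2 averaged 132 ± 4.15 CPM in ILC2s alone and 6.04 ± 0.829 CPM in eosinophils alone (log2 difference 4.45 ± 0.089, edgeR adjusted p = 1.1e-15), and Wipi1 5.29 ± 0.878 CPM and 97.9 ± 4.15 CPM (-4.20 ± 0.097, edgeR adjusted p = 5.6e-15). The paralogs had log2 differences of -0.45 (Atg16l1) and 0.17 (Wipi2), and Atg16l1 had a log2 difference of 0.12 under library totals. The level of Atg16l1 per kilobase was 0.402 ± 0.0081 times that of Atg16l2 in ILC2s alone and 12.2 ± 1.47 times in eosinophils alone. For Wipi1 over Wipi2 the ratios were 0.156 ± 0.026 and 3.24 ± 0.14. Atg14 (2.70), Gabarapl1 (2.36), Atg10 (1.60) and Atg4c (1.31) were also more than 2-fold higher in ILC2s by log2 difference. Bnip3 (-3.03), Tfeb (-1.85), Atg3 (-1.78), Atg7 (-1.74), Atg9a (-1.55), Gabarap (-1.29) and Optn (-1.03) were more than 2-fold lower. In all, 5 members were at least 2-fold higher and 8 at least 2-fold lower, where 25.4% and 22.8% of all genes were. Under library totals the Optn difference no longer passed (-0.46), and the other 12 still passed in the same direction.

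Lists of other genes of the pathway were then counted in both cocultures. Among 16 further genes of initiation and phagophore growth, 4 were higher and 8 lower in ILC2s. Vmp1, an endoplasmic reticulum scramblase needed for autophagosome formation, rose to 253 ± 9.63 CPM in ILC2s with eosinophils, against 45.4 ± 1.44 CPM in ILC2s alone (log2 fold change 2.47 ± 0.044, edgeR adjusted p = 2.0e-27). Tecpr1, which tethers autophagosomes to lysosomes, fell to 165 ± 5.05 CPM, against 663 ± 15.8 CPM in ILC2s alone (-2.01 ± 0.040, edgeR adjusted p = 2.3e-26). Wdr45, a WIPI relative (-1.14), was lower and Rab1a, a GTPase of early secretory membranes (0.76), was higher. In eosinophils 1 of the 16 was higher and 3 lower (6.25% and 18.75%, where 11.4% and 13.5% of all genes were). Bcl2, an inhibitor of Beclin 1 and of apoptosis, fell to 20.4 ± 0.259 CPM in eosinophils with ILC2s, against 54.1 ± 5.02 CPM in eosinophils alone (-1.44 ± 0.086). Vmp1 (-0.50) and Nrbf2 (-0.28), a subunit of the PI3 kinase, were lower there and Rab1b (0.30) was higher.

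Of 16 other mitophagy genes, 9 were higher and 3 lower in ILC2s (56.25% and 18.75%, where 36.8% and 35.6% of all genes were). The channel gene Vdac1, whose product is a target of parkin, was at 197 ± 9.73 CPM in ILC2s with eosinophils and 94.8 ± 2.82 CPM in ILC2s alone (log2 fold change 1.05 ± 0.042, edgeR adjusted p = 4.4e-19). Phb2, an inner membrane mitophagy receptor (0.60), and Fis1, a fission adaptor (0.40), were higher, and Usp30, a deubiquitinase that restrains mitophagy (-0.72), was lower. In eosinophils 2 of 15 tested were higher and 2 lower (13.3% each, where 11.4% and 13.5% of all genes were). Vdac1 was at 107 ± 3.98 CPM in eosinophils with ILC2s and 207 ± 3.28 CPM in eosinophils alone (-0.98 ± 0.057). The fission GTPase Dnm1l (-0.21) was lower, and Pink1, the kinase that marks damaged mitochondria (0.52), and the fusion GTPase Mfn2 (0.23) were higher.

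Of 11 other selective autophagy receptors tested, 2 were higher and 7 lower in ILC2s. Those are 18.2% and 63.6%, where 36.8% and 35.6% of all genes were. Rtn3, a receptor for tubules of the endoplasmic reticulum (0.69), was higher, and Calcoco1 (-0.72), Trim21 (-0.74) and Ccpg1 (-1.07), a further receptor of that organelle, were lower by log2 fold change. In eosinophils 3 of 11 were higher and 1 lower (27.3% and 9.09%, where 11.4% and 13.5% of all genes were). Ccpg1 (0.53), Calcoco1 (0.38) and Retreg1 (0.83) were higher there and Tex264 (-0.57) was lower, all 4 being endoplasmic reticulum autophagy receptors. Of 16 genes of tethering and fusion, 3 were higher and 7 lower in ILC2s (18.75% and 43.75%, where 36.8% and 35.6% of all genes were). Stx17, the SNARE of the autophagosome (-0.89), Plekhm1 (-0.82) and Vps11 (-0.56) were lower and Stx7 (0.62) was higher. In eosinophils 3 of 15 were higher and 2 lower: Stx17 (0.56), Plekhm1 (0.43) and Vps33a (0.24) were higher and Stx7 (-0.23) lower.

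The nutrient and energy sensors had 11 higher and 16 lower of 36 tested in ILC2s (30.6% and 44.4%, all genes 36.8% and 35.6%). Castor1, the arginine sensor of the mTORC1 pathway, was at 145 ± 1.78 CPM in ILC2s with eosinophils and 40.1 ± 2.68 CPM in ILC2s alone (log2 fold change 1.85 ± 0.048). Flcn, folliculin (-1.42), the leucine sensor family gene Sesn1 (-1.40) and Deptor, an mTOR inhibitor (-2.39), were lower. In eosinophils 6 of 34 were higher and 4 lower (17.6% and 11.8%, where 11.4% and 13.5% of all genes were). The 4 that fell were Castor1 (-1.53), Sesn2 (-0.90), Prkab2, a subunit of AMPK (-0.72), and Ddit4, an mTORC1 inhibitor induced by stress (-0.65).

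Of 15 further transcription factors of autophagy genes, 7 were higher and 8 lower in ILC2s (46.7% and 53.3%, all genes 36.8% and 35.6%). Epas1, which encodes HIF-2α, was at 271 ± 24.0 CPM in ILC2s with eosinophils and 49.4 ± 2.49 CPM in ILC2s alone (log2 fold change 2.45 ± 0.054). Hif1a, its paralog (1.23), and the cell cycle factor E2f1 (2.05) were higher too, and Bach1, a repressor of oxidative stress genes (-1.48), was lower. In eosinophils 3 of 15 were higher and 4 lower, with Atf4, the stress response factor (-0.48), and Cebpb (-0.37) lower and Trp53 (0.54) and Mitf, a TFEB relative (0.99), higher.

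The 34 lysosome genes of the TFEB network had 16 higher and 12 lower in ILC2s (47.1% and 35.3%, all genes 36.8% and 35.6%). Glb1 (1.46), which encodes lysosomal β-galactosidase, the protease gene Ctsb (0.85) and the proton pump gene Atp6v1a (1.12) were higher, and Sgsh, a sulfatase (-1.72), was lower. In eosinophils 10 of 33 were higher and 3 lower (30.3% and 9.09%, where 11.4% and 13.5% of all genes were). Ctsa, which encodes cathepsin A, was at 277 ± 9.27 CPM in eosinophils with ILC2s and 191 ± 11.2 CPM in eosinophils alone (log2 fold change 0.51 ± 0.059). Hexa (0.57) and Ctsb (0.45) were also higher there. In the cells alone, 5 of the 34 were higher and 26 lower in ILC2s than in eosinophils. Those are 14.7% and 76.5%, where 40.8% and 39.9% of all genes were.

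**Figure D4:**
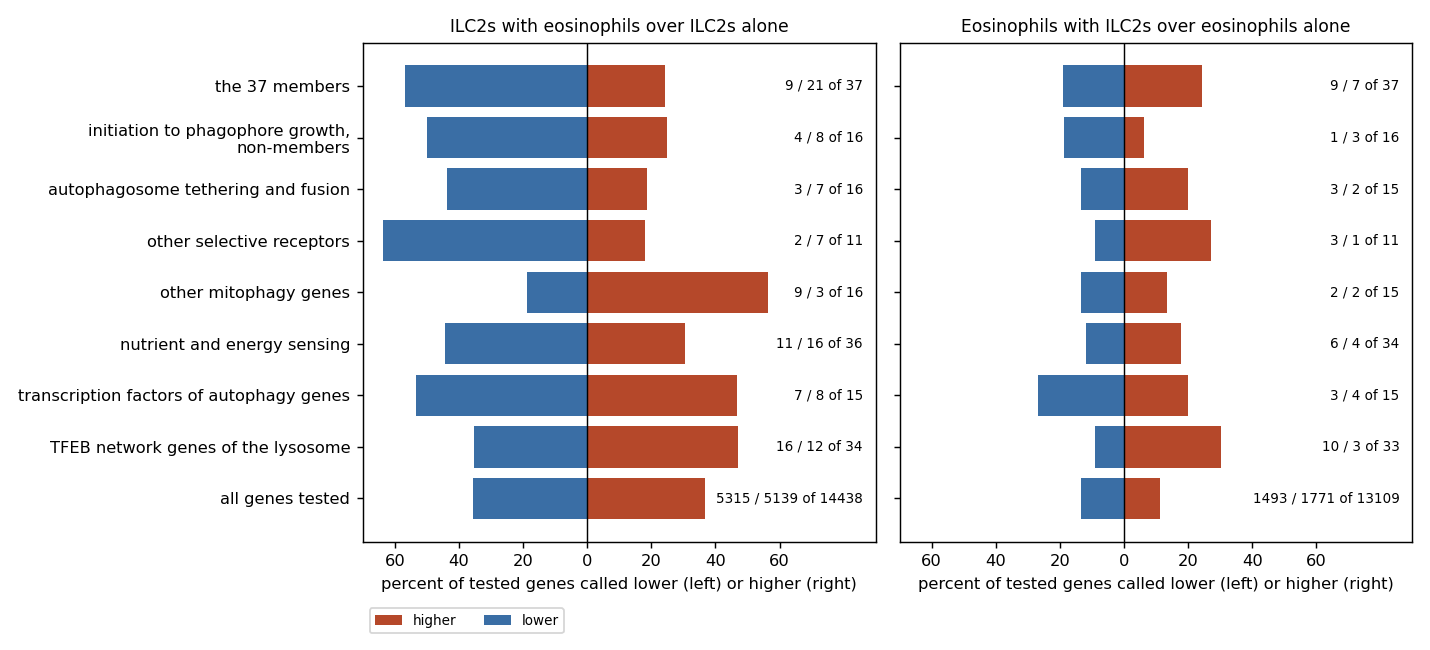
Percent of tested genes called lower (left of 0) and higher (right of 0) in ILC2s with eosinophils over ILC2s alone (left panel) and in eosinophils with ILC2s over eosinophils alone (right panel), for the 37 members, 7 other lists and all genes tested. Numbers at the right of a panel are genes higher and lower of those tested. The members have 9 higher and 21 lower of 37 in ILC2s, and 9 higher and 7 lower of 37 in eosinophils.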

How the data were processed

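RNA of 12 samples was sequenced after Trizol extraction and NEBNext Ultra II library preparation, per the labels' protocols. The deposited values are the authors' read counts per gene, whole numbers without normalization. Build mm10 and the tools STAR 2.5.2b, Trimmomatic 0.36, bcl2fastq 2.17, Subread 1.5.2 and featureCounts are listed in the submitters' processing notes. Which annotation and strand setting were used for counting is not given in the sources used here, so reads of overlapping genes and of close paralogs may be shared. GENCODE M21 gave symbols for 49056 identifiers and none for 259, and exon lengths and overlaps came from it. Exon length was the union of all annotated exons of a gene, whichever transcripts were expressed, and levels per kilobase rest on it.

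Each comparison was fitted on the whole table with edgeR 4.0.16 under R 4.3.3, using filterByExpr, TMM and a quasi-likelihood F test with group as the only term, on its own 6 libraries, or all 12 for the difference of responses. P-values were adjusted by Benjamini-Hochberg over all genes tested, and a call needed an adjusted p under 0.05. Dividing a log2 fold change by the square root of F gave its SE. All 37 members passed the low-count filter in each comparison. Printed CPM were TMM-scaled over all 12 libraries, while sums over marker lists and partner shares used library totals. A partner share took each marker's level as a percent of that in the cocultured partner and then the median, for markers of 10 CPM or more in that partner whose level in the cell alone was 1% of it or less. The fits were tested on simulated data.

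The members, the other lists and the tests were chosen with earlier results of these data known. Values in every library were printed for members called with a log2 change of at least 1 in a coculture, or with a difference of responses of at least 1. Other members were given by value or count, and each other list by its counts and up to 4 called members of smallest p in each coculture. One gene that this rule names is not reported here. Alternatives were DESeq2 1.42.0, limma-voom (limma 3.58.1), other scalings, other low-count filters, leaving out each library, a replicate block and all 12 libraries in the fit.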

Additional observations from a re-analysis of the deposited data

Results flagged for a closer look

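For 8 members the coculture response differed between the cell types by more than 2-fold, by the edgeR test of the difference of responses over all 12 libraries. Of the 37 members, 3 were on the higher side and 5 on the lower side, where 13.6% and 8.94% of all genes were. On the log2 scale, the response of ILC2s minus that of eosinophils was 6.21 for Bnip3, 3.27 for Optn and 1.23 for Bnip3l. It was -1.50 for Gabarapl1, -1.42 for Atg16l2, -1.36 for Ulk1, -1.09 for Sqstm1 and -1.03 for Ulk2. Each of the 8 differences passed the test in the same direction under all 20 alternatives. These 8 were picked by the same test and the alternatives refit the same libraries, so that adds no separate evidence.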

How the results depend on the processing

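Direction and call were compared under 15 alternatives for each comparison within 6 libraries and 20 for the difference of responses. In ILC2s 4 of 9 higher and 19 of 21 lower members kept their call under all of them, in eosinophils 5 of 9 and 5 of 7, between the cells alone 14 of 14 and 10 of 16, and in the difference of responses 3 of 7 and 18 of 19. Scaling by library totals alone had the widest effect: it gave 4 higher members in ILC2s in place of 9, 22 higher and 10 lower between the cells alone in place of 14 and 16, and 3 higher in the difference of responses in place of 7. Among values called under either scaling, its log2 values changed sign for Atg4d in ILC2s (-0.022), and between the cells alone for Rb1cc1 (0.56), Tfe3 (0.53), Atg4b (0.50), Atg4a (0.46), Map1lc3b (0.36), Atg101 (0.13), Atg16l1 (0.12) and Becn1 (0.043). Members called under neither scaling also changed sign with library totals: Atg4a (-0.12), Atg4c (-0.16) and Atg101 (-0.11) in ILC2s, Atg12 in eosinophils (0.0060), and Becn1 (-0.093), Atg9a (-0.16) and Atg16l1 (-0.17) in the difference of responses. Upper quartile scaling changed the sign of called values between the cells alone for Rb1cc1 (0.22), Tfe3 (0.19), Atg4b (0.17) and Map1lc3b (0.024). These scalings moved the median of all genes in the same direction, and the cause was not tested.

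Leaving out single libraries gave 5 to 10 higher members in eosinophils. Over all genes, eosinophils then had 948 (without replicate 3 of eosinophils with ILC2s) to 1604 higher, against 1493, and 2276 with all 12 libraries in the fit.

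Deviations of same-numbered libraries from their group means correlated at -0.018 to 0.097, which cannot show whether the numbers pair the libraries. With a replicate block, 10 members were higher and 21 lower in ILC2s, 11 and 7 in eosinophils, 14 and 16 between the cells alone, and 7 and 20 in the difference of responses. Over all genes, the block gave 2029 higher and 2139 lower in eosinophils, against 1493 and 1771 without it. In ILC2s it gave 5318 and 5104, against 5315 and 5139.

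Depth limited the members of fewest counts: the SE of the log2 fold change in eosinophils was 0.37 for Atg10 and 0.32 for Optn.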
